A study of Mus musculus with 12 samples.

Results

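The response described here is that of mouse peritoneal macrophages lacking Usp5 in the myeloid lineage (MKO) to 3 h of bacterial lipopolysaccharide (LPS). It was measured in 6 of the 12 RNA-seq libraries of the study, 3 labelled USP5-MKO with 3 h of LPS (MKO 3 h) and 3 labelled USP5-MKO with 0 h (MKO 0 h), taken by their labels and by no measured value. The study also held 3 wild-type libraries at 3 h (WT 3 h) and 3 at 0 h (WT 0 h), which are used at the end to ask where the MKO response differed. In all groups the cells were peritoneal macrophages, phagocytes of the abdominal cavity, and total RNA was sequenced. The 0 h cells carry LPS in their treatment label as well, and the series' design text describes mock and LPS-treated cells. The LPS dose, the age and sex of the mice, the Cre driver, the deleted exons, and whether the cells were resident or elicited are not stated in the labels or the file headers. Nor do the labels say that replicates came from separate mice, and the p-values therefore speak only of the spread among these libraries, which may be technical.

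LPS is bound by CD14 and passed to Toll-like receptor 4 with its partner MD-2. From the cell surface the receptor signals through the adaptors TIRAP and MyD88 to the kinases that release NF-kB and activate MAP kinases, and from endosomes through TRAM and TRIF to IRF3 and the interferon beta gene. Ubiquitin chains built by TRAF6 and other ligases carry parts of this signal, and deubiquitinases remove them. Usp5 is a ubiquitin-specific protease known for trimming free ubiquitin chains into single ubiquitin. In macrophages the first genes to respond encode transcription factors and short-lived regulators, followed by cytokines, chemokines and the proteins that end the signal.

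Each library held between 14762709 and 20778862 counts, and both extremes were MKO libraries. Levels are CPM (a gene's counts over the library's total, on the usual scale) after TMM scaling, in which 1 count was worth 0.0469 to 0.0619 CPM in the MKO libraries. Usp5 itself, the targeted gene, stood at 27.9, 27.98 and 26.9 CPM in the MKO 3 h libraries, against 28.7, 29.00 and 31.4 CPM in the MKO 0 h libraries, while its mean was 108 ± 2.86 CPM in WT 3 h and 111 ± 10.4 CPM in WT 0 h (SD, n = 3 each). All 6 MKO libraries thus lay far under the WT means, and Usp5 did not pass the test between MKO 3 h and MKO 0 h (log2 fold change -0.11 ± 0.076 SE, adjusted p = 0.363 in edgeR's quasi-likelihood test). Changes below are log2 fold changes ± SE of MKO 3 h over MKO 0 h from that test, unless named otherwise, with 3 libraries a group. MKO 0 h replicate 3 stood apart from its group mates. On the second principal component of the 6 MKO libraries (15.4% of the variance) it lay at -26.2, against 15.9 and 16 for replicates 1 and 2, and its slope of log2 level on log2 exon length was -0.107, against 0.0456 and 0.0731. The first component (59% of the variance) parted all MKO 3 h from all MKO 0 h libraries. The exon-length slope of WT 0 h replicate 3 deviated the other way, at 0.0194, against -0.0664 and -0.083 for WT 0 h replicates 1 and 2.

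The cells carried macrophage markers at both times. Adgre1, Csf1r, Laptm5, Cd68, Mertk and the other macrophage markers present in the table (9 of 10, Itgam was not analysed here) summed to 8122, 8118 and 8443 CPM in the MKO 3 h libraries, against 7616, 7627 and 8188 CPM in the MKO 0 h libraries. The list of large resident peritoneal macrophages summed to 586, 571.8 and 468 CPM in the MKO 3 h libraries, against 412, 387 and 482 CPM in the MKO 0 h libraries, mostly Saa3, an acute phase gene (549.6, 537 and 428 CPM in MKO 3 h, against 377, 352 and 442 CPM in MKO 0 h). Icam2, F5 and Selp of this list were also present. Of its defining genes, Gata6, Vsig4 and Cxcl13 had no count in any of the 6 MKO libraries, which allows up to 0.0267 CPM (3 counts over the 6 libraries, counting error only), and Timd4 had 2 counts in all. Sums in CPM over the B cell, neutrophil, mast cell, mesothelial and platelet lists overlapped between the times, while those of 2 other lists did not. The T and NK cell list summed to 8.65, 8.67 and 9.15 CPM in the MKO 3 h libraries, against 12.5, 12.6 and 12.3 CPM in the MKO 0 h libraries, and most of this sum was Cd4 (6.91, 6.69 and 6.62 CPM in MKO 3 h, against 9.77, 10.1 and 8.97 CPM in MKO 0 h; -0.51 ± 0.12, adjusted p = 0.0103). The dendritic cell list summed to 13.9, 16.3 and 13.9 CPM in MKO 3 h, against 11.85, 10.9 and 13.4 CPM in MKO 0 h. The part of such cells in the results was not tested. In bulk RNA, fewer cells of a type and less RNA per cell cannot be told apart.

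Among called genes, the largest changes in MKO macrophages were rises, and many of the genes that rose most encode inflammatory proteins. Among 12455 genes tested, 1214 (9.75%) were called higher at 3 h and 757 (6.08%) lower at a Benjamini-Hochberg adjusted p under 0.05. Most changes were small. Of the genes called higher, 885 changed less than 2-fold, 183 changed 2- to 4-fold, 114 changed 4- to 16-fold and 32 changed at least 16-fold, while of those called lower 660, 93, 3 and 1 fell in these classes. The 1 called fall of at least 16-fold was that of the noncoding gene Gm26847, named here after its values were seen, at 0, 0.0619 and 0 CPM in the MKO 3 h libraries, against 0.489, 0.237 and 0.598 CPM in the MKO 0 h libraries. With scaling by library size alone 837 were called higher and 1758 lower, and the higher share of calls was 32.3% in place of 61.6%; that scaling moved the median of all genes to -0.10 on the log2 scale. Without replicate 1, 2 or 3 of MKO 3 h the number called lower was 495, 494 and 428. In the plot of all genes, most called genes with large changes lie on the upper side. Of 23 lists with 1 or 2 members called lower, 16 had another such count with 1 MKO library left out, by 1 or 2 members. Counts over gene lists below are over members that passed the low-count filter (770 of 806 memberships in 35 lists). Each is to be read beside the 9.75% called higher and 6.08% called lower of all genes tested.

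**Figure D1:**
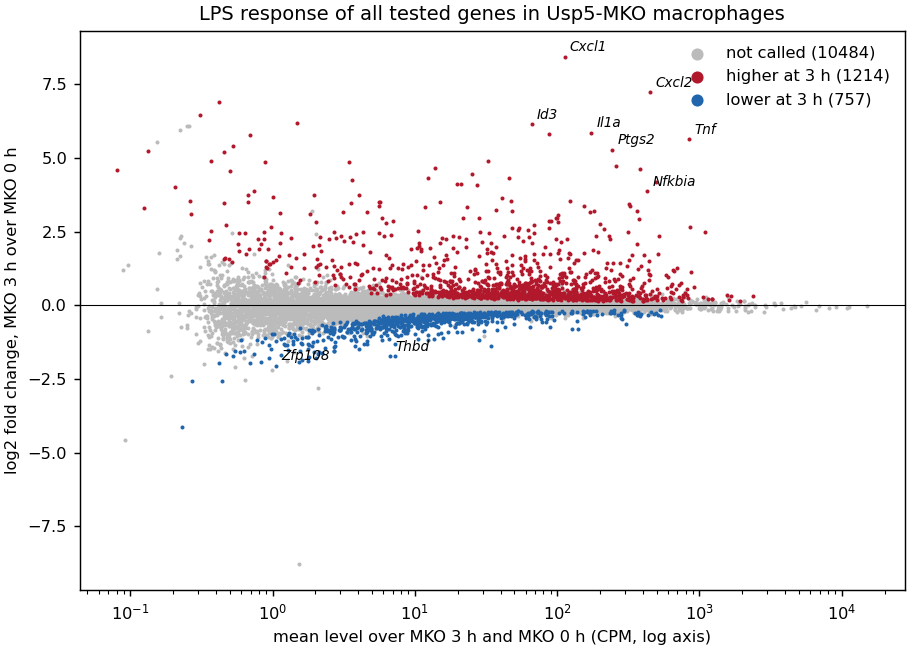
Log2 fold change of MKO 3 h over MKO 0 h (vertical axis) against mean level over the 6 MKO libraries (horizontal axis, CPM, log scale), 1 point per gene tested. Red points are the 1214 genes called higher, blue points the 757 called lower and grey points the 10484 not called; the highest point is Cxcl1 at 8.43.

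The genes called higher, which were picked for being higher in these same libraries, made up 13.8, 13.7 and 14.3% of deposited TPM (length-corrected transcript shares) in the MKO 3 h libraries, against 8.53, 8.66 and 7.48% in the MKO 0 h libraries. The 329 genes (2.64% of those tested) that were called higher and at least 2-fold up held 4.94, 4.94 and 5.24% at 3 h, against 1.29, 1.30 and 1.19% at 0 h. Their median genomic span was 10.46 kb and their median exon length 3.46 kb, against 22.36 kb and 4.38 kb over all genes tested. Their median level in MKO 0 h was 7.61 CPM, which is not corrected for length, against 22.0 CPM over all genes tested. The 97 genes (0.779%) called lower by at least 2-fold spanned a median of 8.81 kb with a median of 2.81 CPM in MKO 0 h. Both sets were picked for their change, so these shares and medians describe them and test nothing.

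The largest rise belonged to Cxcl1 and Cxcl2, which encode CXC chemokines that draw neutrophils through the receptor CXCR2. Cxcl1 stood at 223, 226 and 224 CPM in the MKO 3 h libraries, against 0.550, 0.663 and 0.698 CPM in the MKO 0 h libraries. Cxcl2 stood at 876, 905 and 909.8 CPM in the MKO 3 h libraries, against 6.72, 5.88 and 5.53 CPM in the MKO 0 h libraries. Neither gene had a 3 h library near any 0 h library, and the log2 fold changes were 8.43 ± 0.18 and 7.22 ± 0.088 (adjusted p = 7.82e-14 and 1.87e-16). Of the other genes with the largest rises, Id3, Tnf, Il1a, Il1b, Tnfsf9, Ptgs2, Maff, Fosb and Nfkbiz are described with their groups. Gem, a small GTPase gene, stood at 23.6, 27.2 and 29.1 CPM in the MKO 3 h libraries, against 1.34, 1.14 and 0.747 CPM in the MKO 0 h libraries, a rise of 4.64 ± 0.15. Csf3, Il23a and Tmem200b had 2, 1 and 1 counts over the MKO 0 h libraries, so their folds rest on counting: the ratios of MKO 3 h to MKO 0 h were 88.4, 75.8 and 59.99, with 95% counting intervals of 24.1 to 736, 13.2 to 3034 and 10.3 to 2410.4.

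**Figure D2:**
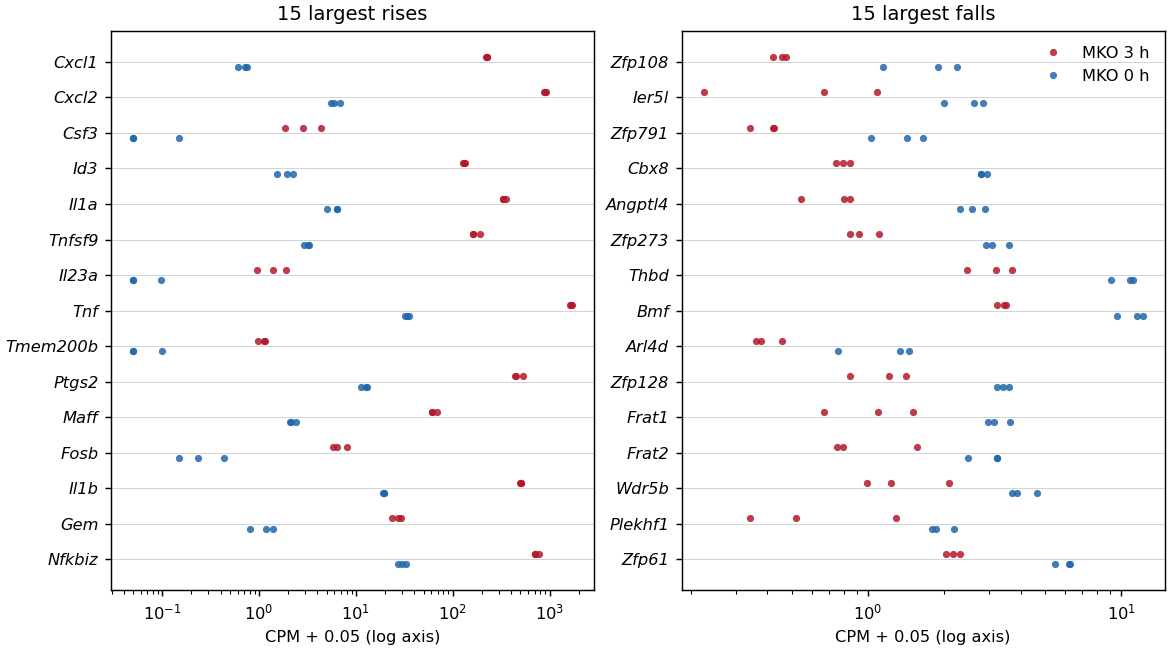
Level in each MKO library (CPM + 0.05, log axis) of the 15 genes with the largest rises and the 15 with the largest falls among called genes at 1 CPM or more without overlap between the groups, with 3 dots per group, MKO 3 h in red and MKO 0 h in blue. The dots of the groups do not overlap for any of the 30 genes, which the choice of genes required; the falling genes all lie at or under the 12.1 CPM of Bmf.

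Upstream sequence was searched for 7 of the strongly rising genes and is shown for 5, because kappaB sites near the start are the classical mark of LPS-induced promoters. The consensus, GGGRNNYYCC (R for A or G, Y for C or T, N for any base), was found in 3 of the 7. The stretches end at the base before the RefSeq start (assembly GRCm38.p6), run 5′ to 3′ on the gene's own strand and have the kappaB consensus, searched on both strands, in capitals. The 2 overlapping matches of Cxcl1 begin 71 and 70 bases before the start, those of Cxcl2 97 and 96 bases before it, and the match of Nfkbia 29 bases before it. No match lies in the 250 bases before the start of Tnf, Id3, Il1a or Ptgs2, which says only that these letters are not in that window. For Id3 the window lies inside the gene as annotated for the counts, which begins at position 136143497. Of 32851 RefSeq promoters, 7.25% held the consensus in a window of that length. The 7 genes were picked by hand and not by a rule, so their matches are no test against this share. The stretches lie at chr5:90891154-90891244 (plus strand, Cxcl1), chr5:90903782-90903898 (plus, Cxcl2), chr12:55492648-55492696 (minus, Nfkbia), chr17:35202008-35202107 (minus, Tnf) and chr4:136143722-136143821 (plus, Id3).
Cxcl1: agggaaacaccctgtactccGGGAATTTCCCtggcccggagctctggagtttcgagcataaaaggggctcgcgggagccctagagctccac
Cxcl2: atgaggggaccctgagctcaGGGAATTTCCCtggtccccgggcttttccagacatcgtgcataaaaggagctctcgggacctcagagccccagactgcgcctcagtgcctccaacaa
Nfkbia: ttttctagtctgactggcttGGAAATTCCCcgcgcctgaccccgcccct
Tnf: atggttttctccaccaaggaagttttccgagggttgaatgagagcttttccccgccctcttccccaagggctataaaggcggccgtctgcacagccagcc
Id3: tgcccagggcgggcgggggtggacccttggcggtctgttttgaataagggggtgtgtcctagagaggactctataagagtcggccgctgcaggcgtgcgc

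At the top of the pathway, the gene of the co-receptor rose while those of the receptor pair were not called. Of 28 tested genes of the Toll-like receptor 4 complex and its adaptors and kinases, 10 were called higher and 2 lower, with a median log2 fold change of 0.16, and 7 to 10 were higher when any 1 MKO library was left out. Cd14, the co-receptor that hands LPS to the complex, stood at 789, 758 and 816 CPM in the MKO 3 h libraries, against 369, 359 and 419.5 CPM in the MKO 0 h libraries, and it rose by 1.04 ± 0.066 (adjusted p = 2.05e-08). Tlr4 was at 122, 108 and 115 CPM in the MKO 3 h libraries, against 146, 146 and 113 CPM in the MKO 0 h libraries, which overlap, and it was not called (-0.23 ± 0.086, adjusted p = 0.0899). Without MKO 0 h replicate 3, the lowest of its group, it was called lower (-0.35, adjusted p = 0.00041). Ly96, which encodes MD-2, was not called either (0.07 ± 0.14, adjusted p = 0.794).

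Below the receptor, the kinase genes Irak2 (133 ± 4.38 CPM in MKO 3 h, against 75.4 ± 3.79 CPM in MKO 0 h; SD, n = 3 each) and Map3k8 (50.7 ± 2.83 CPM in MKO 3 h, against 29.7 ± 1.60 CPM in MKO 0 h) rose by 0.81 ± 0.058 and 0.77 ± 0.071. Traf6, the ligase that builds Lys63-linked chains, rose by 0.63 ± 0.062, and Traf3, an adaptor of the TRIF branch, by 0.74 ± 0.096. Tirap, which brings MyD88 to the membrane, was at 20.03, 18.3 and 17.9 CPM in the MKO 3 h libraries, against 25.4, 29.9 and 22.3 CPM in the MKO 0 h libraries, and it fell by 0.47 (SE 0.10, adjusted p = 0.00599). Myd88 was not called (0.15 ± 0.066, adjusted p = 0.137). Among 13 other Toll-like receptor genes 2 rose and 0 fell, where 9.75% of all genes tested were called higher and 6.08% lower. Counts this small do not tell the list from all genes. Tlr2, the lipoprotein receptor, rose by 2.75 ± 0.061 to 350.3 ± 10.8 CPM in MKO 3 h, against 51.97 ± 1.22 CPM in MKO 0 h, and its partner Tlr1 rose by 0.31 ± 0.071.

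All 11 genes for NF-kB subunits and IkB proteins were called higher, with a median of 1.26 where the median of all genes tested was -0.01, and all 11 remained called with any 1 MKO library left out. The 4 largest rises were those of IkB family genes. Nfkbia, which encodes the inhibitor that returns NF-kB to the cytoplasm, stood at 795, 799 and 825 CPM in the MKO 3 h libraries, against 55.2, 58.5 and 52.9 CPM in the MKO 0 h libraries, a rise of 3.86 ± 0.066 (adjusted p = 6.82e-15). Nfkbiz, whose nuclear IkB protein is needed for a later set of cytokine genes, stood at 702, 709.9 and 781 CPM in the MKO 3 h libraries, against 32.7, 29.9 and 27.1 CPM in the MKO 0 h libraries, a rise of 4.62 ± 0.079. For both genes the 3 h libraries stood close together, far above those of 0 h.

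Nfkbie and Nfkbid rose by 2.86 ± 0.063 and 2.45 ± 0.11, and Nfkbib by 1.21 ± 0.10. Among the DNA-binding subunits Rel, the c-Rel gene, stood at 274, 269 and 299 CPM in the MKO 3 h libraries, against 80.4, 89.5 and 57.95 CPM in the MKO 0 h libraries and rose by 1.89 ± 0.12. Relb and Nfkb2, of the alternative pathway, rose by 1.26 ± 0.066 and 1.08 ± 0.061. Rela, the p65 gene, rose by 0.84 ± 0.074, Bcl3 by 0.71 ± 0.061 and Nfkb1 by 0.46 ± 0.10, the least of the 11 (adjusted p = 0.00624).

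Immediate early genes, which encode transcription factors switched on without new protein synthesis, were the list with the highest median among those given here, at 2.03 over 26 tested members. Of these 25 were called higher and 0 lower, and 23 or 24 with any 1 library left out. Maff, a small Maf factor, stood at 60.6, 60.4 and 69.3 CPM in the MKO 3 h libraries, against 2.02, 2.08 and 2.34 CPM in the MKO 0 h libraries; it rose by 4.88 ± 0.11. Egr1, a zinc finger factor, stood at 243, 256 and 342 CPM in the MKO 3 h libraries, against 25.1, 30.3 and 25.6 CPM in the MKO 0 h libraries, a rise of 3.37 ± 0.14, and replicate 3 was the highest of its 3 h libraries.

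The same 3 h library also led for Egr2 (315, 313 and 354 CPM in MKO 3 h, against 38.4, 37.3 and 31.5 CPM in MKO 0 h), Junb (832, 843 and 942 CPM, against 175, 166 and 169.6 CPM) and the orphan receptor gene Nr4a1 (36.3, 34.4 and 55.4 CPM, against 3.42, 4.36 and 4.68 CPM). These genes rose by 3.20 ± 0.084, 2.36 ± 0.061 and 3.33 ± 0.20, and no groups overlapped. Fosb rose by 4.85 ± 0.32 (6.33, 5.76 and 7.98 CPM in MKO 3 h, against 0.183, 0.379 and 0.0997 CPM in MKO 0 h). Fos rose by 1.55 ± 0.088, Myc by 2.31 ± 0.079, Csrnp1 by 2.96 ± 0.072 and Ier3 by 2.63 ± 0.093. Jund was the 1 member not called (139, 141 and 148 CPM in MKO 3 h, against 114, 119 and 94.7 CPM in MKO 0 h; 0.39 ± 0.18, adjusted p = 0.161).

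Of 27 cytokine genes tested 18 rose and 1 fell, with a median of 1.74, and 17 to 19 rose with any 1 library left out. Tnf, the tumour necrosis factor gene, stood at 1635, 1655 and 1706 CPM in the MKO 3 h libraries, against 35.1, 33.5 and 32.1 CPM in the MKO 0 h libraries. It had the highest mean TPM at 3 h of all genes called higher, and it rose by 5.63 ± 0.062 (adjusted p = 9.54e-17). Il1b, the interleukin 1 beta gene, stood at 501, 506 and 499 CPM in the MKO 3 h libraries, against 19.3, 18.8 and 19.4 CPM in the MKO 0 h libraries and rose by 4.71 ± 0.084, and Il1a rose by 5.85 ± 0.082. The libraries of each group were nearly level for both Tnf and Il1b.

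Tnfsf9, which encodes the ligand of the costimulatory receptor 4-1BB, stood at 159.9, 163 and 193 CPM in the MKO 3 h libraries, against 2.87, 3.13 and 3.24 CPM in the MKO 0 h libraries, a rise of 5.79 ± 0.099. Il6, the interleukin 6 gene, stayed low at 7.66, 7.49 and 5.35 CPM in the MKO 3 h libraries, against 0.183, 0.379 and 0.448 CPM in the MKO 0 h libraries, although it rose by 4.26 ± 0.26 (adjusted p = 1.14e-08). Il12b, which encodes the p40 subunit of interleukins 12 and 23, was low as well, with 3.56 ± 0.546 CPM in MKO 3 h, against 0.721 ± 0.129 CPM in MKO 0 h (SD, n = 3 each), and rose by 2.31 ± 0.20. The anti-inflammatory Il10 stood at 13.4, 16.3 and 21.7 CPM in the MKO 3 h libraries, against 4.27, 4.12 and 4.34 CPM in the MKO 0 h libraries, a rise of 2.02 ± 0.18, and was highest in replicate 3 at 3 h. Il1rn, the interleukin 1 receptor antagonist gene, was abundant at both times (774 ± 6.88 CPM in MKO 3 h, against 491 ± 4.65 CPM in MKO 0 h) and rose by 0.66 ± 0.056.

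Osm rose by 2.16 ± 0.13, Il27 by 1.91 ± 0.15, Lif by 3.14 ± 0.47, Inhba by 2.14 ± 0.29 and Csf1 by 0.76 ± 0.077. Csf2, the GM-CSF gene, was at or under 0.755 CPM in every MKO library (0.755, 0.557 and 0.235 CPM in MKO 3 h, against 0.0611, 0.190 and 0.648 CPM in MKO 0 h) and was not called (0.68 ± 0.60, adjusted p = 0.486). Il16, a chemoattractant of CD4 T cells, was the member that fell, by 0.43 (SE 0.093, adjusted p = 0.00535). Tgfb1 and Il15 were not called, at 0.19 ± 0.21 and 0.07 ± 0.10.

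Among 23 chemokine genes tested 13 rose and 0 fell, with a median of 0.65, and 13 to 15 rose with any 1 library left out. Beside Cxcl1 and Cxcl2, Cxcl3 of the same group rose by 3.49 ± 0.20 to 10.4 ± 0.441 CPM in MKO 3 h, against 0.899 ± 0.375 CPM in MKO 0 h. The monocyte attractant Ccl2 stood at 663, 666 and 628 CPM in the MKO 3 h libraries, against 222, 207 and 258 CPM in the MKO 0 h libraries. It rose by 1.51 ± 0.086 (adjusted p = 5.85e-09), and its neighbour Ccl7 by 1.43 ± 0.092. Ccl3 and Ccl4, the macrophage inflammatory proteins, were already at 138 ± 10.4 and 61.9 ± 7.74 CPM in MKO 0 h, and rose by 2.09 ± 0.067 and 2.33 ± 0.079.

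Cxcl10, an interferon-inducible attractant of T cells, stood at 389, 397 and 376 CPM in the MKO 3 h libraries, against 79.8, 75.96 and 90.7 CPM in the MKO 0 h libraries and rose by 2.24 ± 0.11. Ccl9, second to Tnf in mean TPM at 3 h among the genes called higher, gained little: 2639.6, 2678 and 2589.8 CPM in the MKO 3 h libraries, against 2068, 2007 and 2280.1 CPM in the MKO 0 h libraries (0.32 ± 0.052, adjusted p = 0.000599). Ccl6 and Ccl5, also abundant, overlapped between the times and were not called (-0.16 ± 0.075 and 0.24 ± 0.12, adjusted p = 0.179 and 0.213). Without MKO 0 h replicate 3, which had the highest Ccl5 level of its group at 728 CPM, Ccl5 was called higher.

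Genes that end the signal rose beside those that carry it. Of 23 tested feedback regulators of NF-kB 12 rose and 1 fell, with a median of 0.31, and 12 or 13 rose with any 1 library left out. Tnfaip3, which encodes the ubiquitin-editing enzyme A20, stood at 899, 903 and 1015 CPM in the MKO 3 h libraries, against 55.5, 58.4 and 42.5 CPM in the MKO 0 h libraries, a rise of 4.17 ± 0.10 (adjusted p = 2.58e-13). Tnip1 and Tnip3, whose products work with A20, rose by 1.11 ± 0.064 and 1.08 ± 0.061, Traf1 by 2.32 ± 0.070 and the ubiquitin ligase gene Birc3 by 1.26 ± 0.059. Tnfaip8l2 was the member that fell, by 0.74 (SE 0.10, adjusted p = 0.000101). Of the deubiquitinase genes in the list, Cyld, Otud7b and Otulin were not called.

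Regulators of mRNA decay had 6 of 14 members called higher and 0 lower, with a median of 0.22, and 6 were called higher with any 1 library left out. Zfp36, which encodes the AU-rich element binding protein tristetraprolin, stood at 1383, 1449.6 and 1605 CPM in the MKO 3 h libraries, against 224, 229 and 244 CPM in the MKO 0 h libraries; it rose by 2.67 ± 0.060 (adjusted p = 1.17e-13). Zc3h12a, which encodes the endonuclease Regnase-1, rose by 2.26 ± 0.083, Zc3h12c by 2.87 ± 0.18 and Zfp36l1 by 1.19 ± 0.11. For Zc3h12c the 0 h values were uneven (24.6, 27.7 and 13.3 CPM), with replicate 3 the lowest.

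Of 15 genes for MAP kinase phosphatases and Sprouty proteins, 9 rose and 1 fell, with a median of 0.97, and 7 to 9 rose with any 1 library left out. Dusp1, which encodes a phosphatase that switches off p38 and JNK, stood at 560.0, 565 and 645 CPM in the MKO 3 h libraries, against 50.1, 55.4 and 57.6 CPM in the MKO 0 h libraries, a rise of 3.44 ± 0.075. Dusp2 rose by 4.31 ± 0.088, Dusp5 by 3.52 ± 0.13, Dusp8 by 2.78 ± 0.17, Dusp4 by 2.57 ± 0.13 and Spry2 by 0.90 ± 0.10. Dusp3 and Dusp7 were not called, at -0.11 ± 0.055 and 0.12 ± 0.10.

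The SOCS genes, inhibitors of cytokine receptor signalling, split. Of 8 tested, 3 were called higher and 2 lower, with a median of 0.39. Socs3 stood at 641, 649.9 and 669 CPM in the MKO 3 h libraries, against 69.8, 69.7 and 72.6 CPM in the MKO 0 h libraries and rose by 3.21 ± 0.065 (adjusted p = 4.61e-14), and Cish rose by 1.92 ± 0.13. Socs1, the inhibitor of interferon signalling, stood at 8.59, 11.2 and 9.44 CPM in the MKO 3 h libraries, against 17.2, 19.4 and 21.1 CPM in the MKO 0 h libraries. It fell by 0.99 (SE 0.12, adjusted p = 2.38e-05), and Socs6 fell by 0.64 (SE 0.080). Socs5, the other member called higher, was not called without MKO 3 h replicate 1, MKO 3 h replicate 2 or MKO 0 h replicate 1, where its adjusted p was 0.0524, 0.087 and 0.0589.

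In the interferon arm the members that rose did so mostly by less than 2-fold. Of 15 genes for type I interferon, its receptor and the interferon regulatory factors 5 were higher and 2 lower, with a median of 0.14, and without replicate 3 of both 0 h groups 9 were higher. Ifnb1, the interferon beta gene, reached 1.16, 1.42 and 1.55 CPM in MKO 3 h, against 0.183, 0.0474 and 0.0498 CPM in MKO 0 h, a rise of 3.89 ± 0.47 from a few counts (adjusted p = 2.94e-05). Irf1 stood at 785, 764 and 846 CPM in the MKO 3 h libraries, against 397, 395 and 441 CPM in the MKO 0 h libraries, a rise of 0.96 ± 0.058, and Irf4 rose by 2.29 ± 0.11. Ifnar1, a receptor chain, rose by 0.50 ± 0.063, while Stat2, which joins the receptor to its target genes, fell by 0.37 (SE 0.051, adjusted p = 0.000123). Irf7 overlapped between the times and was not called.

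Of 49 interferon-stimulated genes tested 11 were higher and 1 was lower, with a median of 0.07. Ifi205 rose by 1.44 ± 0.10, Gbp5, a guanylate-binding protein gene, by 0.90 ± 0.075 and Oasl1 by 0.61 ± 0.080. Rsad2, which encodes the antiviral protein viperin, stood at 813, 830.0 and 889 CPM in the MKO 3 h libraries, against 693, 727 and 665 CPM in the MKO 0 h libraries, a rise of only 0.28 ± 0.051. Ifit2, an interferon-induced RNA-binding protein gene that was not called, stood at 1316, 1334 and 1357 CPM in the MKO 3 h libraries, against 1497, 1495 and 1407 CPM in the MKO 0 h libraries; no 3 h library was above any 0 h library, and its change of -0.14 ± 0.051 had an adjusted p of 0.0914, or 0.0242 without MKO 0 h replicate 3. The count depended on single libraries: without MKO 3 h replicate 2 and 3 it was 7 and 6, and without replicate 3 of both 0 h groups 24.

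Genes of several effector systems of activated macrophages rose. In prostaglandin synthesis 4 of 17 genes rose and 1 was lower, with a median of 0.09. Ptgs2, the inducible cyclooxygenase gene, stood at 447, 444 and 537 CPM in the MKO 3 h libraries, against 12.6, 12.98 and 11.1 CPM in the MKO 0 h libraries and rose by 5.28 ± 0.10. The terminal synthase Ptges rose by 2.97 ± 0.13 and the PGE2 receptor gene Ptger4 by 1.44 ± 0.063. Ptger2 was the member called lower (-0.44 ± 0.14, adjusted p = 0.0396), and it was not called without any of MKO 3 h replicates 1, 2 and 3 or MKO 0 h replicates 1 and 3 (adjusted p between 0.0583 and 0.14).

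In coagulation and fibrinolysis 10 of 16 genes rose and 1 fell, with a median of 0.45, and 9 rose with any 1 library left out. Thbs1, the thrombospondin gene, stood at 1171, 1153 and 1283 CPM in the MKO 3 h libraries, against 593, 603 and 472 CPM in the MKO 0 h libraries; it rose by 1.11 ± 0.079. Serpinb2 rose by 3.16 ± 0.18, F3, the tissue factor gene, by 2.38 ± 0.18, Plaur, the urokinase receptor gene, by 0.97 ± 0.054 and urokinase itself (Plau) by 0.59 ± 0.046. Thbd, whose product thrombomodulin restrains thrombin, was the member that fell, with 3.66, 2.41 and 3.15 CPM in the MKO 3 h libraries, against 11.1, 10.8 and 9.07 CPM in the MKO 0 h libraries (-1.73 ± 0.16, adjusted p = 1.76e-06). Of 14 matrix protease and inhibitor genes 5 were higher and 1 lower, with a median of 0.29, and without MKO 3 h replicate 3 the number higher was 3. Mmp13 and Mmp14 rose by 1.05 ± 0.059 and 0.89 ± 0.079.

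Adhesion and costimulatory genes rose in part. Of 24 genes for antigen presentation and costimulation 9 rose and 1 fell, with a median of 0.08. Vcam1, an adhesion molecule for leukocytes, averaged 82.5 ± 2.25 CPM in MKO 3 h, against 13.4 ± 0.536 CPM in MKO 0 h and rose by 2.62 ± 0.080. Icam1, a ligand of leukocyte integrins, stood at 526, 515 and 528 CPM in the MKO 3 h libraries, against 212, 220.5 and 231 CPM in the MKO 0 h libraries, a rise of 1.24 ± 0.050. Cd83 rose by 2.83 ± 0.088, Icosl by 1.95 ± 0.13 and Cd40, which also stands in the cytokine list, by 1.74 ± 0.088. The class I genes H2-D1 and B2m did not pass the test (0.00 ± 0.076 and -0.08 ± 0.11, adjusted p = 0.991 and 0.667), and none of the class II genes H2-Aa, H2-Ab1 and H2-Eb1 was called.

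Of 25 survival and cell death genes 16 rose and 0 fell, with a median of 0.62, and 16 rose under each choice of 1 library left out. Cflar, which encodes the caspase 8 inhibitor c-FLIP, stood at 624, 626 and 629 CPM in the MKO 3 h libraries, against 207, 212 and 161 CPM in the MKO 0 h libraries, a rise of 1.69 ± 0.081. The kinase genes Pim1 and Pim3 rose by 1.53 ± 0.079 and 1.82 ± 0.10, Gadd45b by 1.73 ± 0.097 and Mcl1 by 0.54 ± 0.060. Bcl2l11, which encodes the pro-apoptotic BIM, rose too, by 0.97 ± 0.079. Bcl2a1a, Bcl2a1b and Bcl2a1d were called higher, but these near-identical copies may share reads. Bax and Bak1 were not called.

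The p53 target list overlapped with the immediate early and survival lists. Of 29 tested members 9 rose and 1 fell, with a median of 0.10. Cdkn1a, which encodes the cell cycle inhibitor p21, stood at 888, 886 and 937 CPM in the MKO 3 h libraries, against 382, 399 and 413 CPM in the MKO 0 h libraries and rose by 1.18 ± 0.056. Mdm2, the ubiquitin ligase of p53, rose by 1.34 ± 0.046, Plk2 by 1.04 ± 0.056, Gdf15 by 1.96 ± 0.11 and Btg2 by 1.87 ± 0.065. Sesn1, a stress-response gene, fell by 0.45 (SE 0.060).

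Inflammasome genes rose in 4 of 18 cases and were lower in 2, where 9.75% of all genes tested were called higher and 6.08% lower. Nlrp3, the sensor whose level limits inflammasome assembly, stood at 358, 359 and 382 CPM in the MKO 3 h libraries, against 63.3, 63.3 and 55.6 CPM in the MKO 0 h libraries; it rose by 2.59 ± 0.080 (adjusted p = 4.83e-12). Mefv, the pyrin gene, rose by 1.54 ± 0.088. Txnip, a thioredoxin-binding protein gene, fell by 0.47 (SE 0.053). Casp1, with 295 ± 5.58 CPM in MKO 3 h, against 304 ± 29.8 CPM in MKO 0 h, was not called.

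Acod1, which makes the metabolite itaconate, was the fourth by mean TPM at 3 h of all genes called higher. It stood at 1826, 1819 and 1899 CPM in the MKO 3 h libraries, against 319, 331 and 332 CPM in the MKO 0 h libraries and rose by 2.50 ± 0.068 (adjusted p = 1.09e-12). In its list, arginine metabolism and polarization, 9 of 15 genes rose and 0 fell, with a median of 0.86. Sod2, the mitochondrial superoxide dismutase gene, rose by 1.18 ± 0.068, the arginine transporter gene Slc7a2 by 1.79 ± 0.12, Odc1 by 1.14 ± 0.092 and Nos2, the inducible nitric oxide synthase gene, by 1.21 ± 0.14 to 15.9 ± 0.939 CPM in MKO 3 h, against 6.89 ± 0.597 CPM in MKO 0 h. Arg1, the arginase of alternatively activated cells, was at or under 1.77 CPM in every MKO library and not called. Of 17 acute phase and antimicrobial genes 6 were higher and 0 lower, with a median of 0.06; Ptx3, a soluble pattern receptor gene, rose by 2.98 ± 0.17 and C3, the complement gene, by 0.35 ± 0.049.

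Surface receptor genes changed in part. Of 29 scavenger, phagocytic and Fc receptor genes 8 were higher and 1 lower, with a median of 0.07, and without MKO 3 h replicate 2 the number higher was 5. Clec4e, which encodes the mycobacterial glycolipid receptor Mincle, stood at 598, 592 and 599 CPM in the MKO 3 h libraries, against 55.6, 57.1 and 60.9 CPM in the MKO 0 h libraries, a rise of 3.36 ± 0.074. Olr1, a receptor for oxidised lipoprotein, rose by 4.32 ± 0.21, Trem1 by 1.85 ± 0.14 and the complement receptor gene C5ar1 by 0.86 ± 0.055. Cd36 and Cd68 were abundant at both times and not called.

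Among 15 chemokine and formyl peptide receptor genes 8 were higher and 3 lower, and without MKO 3 h replicate 3 the number lower was 1. Ccrl2, which presents chemerin without signalling, rose by 3.15 ± 0.095 to 305 ± 26.9 CPM in MKO 3 h, against 34.3 ± 2.22 CPM in MKO 0 h. Fpr1 and Fpr2, receptors of bacterial formyl peptides, rose by 1.30 ± 0.17 and 0.87 ± 0.10. Cxcr4 stood at 17.9, 19.99 and 17.1 CPM in the MKO 3 h libraries, against 30.5, 35.4 and 30.6 CPM in the MKO 0 h libraries and fell by 0.81 (SE 0.10, adjusted p = 4.59e-05).

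The Id and inhibitory Smad genes, known as targets of BMP and TGF-beta signalling, had 6 of 11 members called higher and 0 lower, with a median of 1.64, and 6 rose with any 1 library left out. Id3, whose product keeps basic helix-loop-helix factors off DNA, stood at 133, 131 and 127 CPM in the MKO 3 h libraries, against 2.20, 1.47 and 1.89 CPM in the MKO 0 h libraries, a rise of 6.15 ± 0.14. Id2 rose by 1.81 ± 0.076, Id1 by 2.34 ± 0.28, Skil by 2.36 ± 0.073 and Smad7, which blocks TGF-beta receptors, by 1.64 ± 0.13. Smad6, which blocks BMP receptors, stood at 7.72, 6.75 and 5.35 CPM in the MKO 3 h libraries, against 0.122, 0.711 and 0.847 CPM in the MKO 0 h libraries; it rose by 3.48 ± 0.42 (adjusted p = 2.72e-05).

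Among macrophage lineage factors 7 of 23 rose and 2 were lower. Cebpb, a factor of inflammatory genes, stood at 293, 299 and 345 CPM in the MKO 3 h libraries, against 142, 126 and 119 CPM in the MKO 0 h libraries and rose by 1.27 ± 0.075. Bhlhe40 rose by 1.66 ± 0.094 and Klf4 by 0.83 ± 0.14. Csf1r, the receptor of the macrophage growth factor, was not called (0.10 ± 0.043, adjusted p = 0.135).

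Most metabolic genes that rose did so by less than 2-fold, and 9.75% of all genes tested were called higher. Of 25 glycolysis and Hif1a target genes 8 were higher and 1 lower, with a median of 0.10, and the number higher was 5 without MKO 3 h replicate 3 and 15 without replicate 3 of both 0 h groups. Slc2a1, the glucose transporter gene, rose by 0.70 ± 0.061, Hk2 by 0.84 ± 0.086, Vegfa by 1.05 ± 0.10 and Hif1a itself by 0.55 ± 0.062, while the abundant enzyme genes Pkm and Aldoa were not called. Of 24 cholesterol synthesis genes 8 rose and 0 fell, with a median of 0.02. Insig1, a brake on sterol synthesis, stood at 139, 135 and 136 CPM in the MKO 3 h libraries, against 77.7, 82.3 and 74.2 CPM in the MKO 0 h libraries, a rise of 0.81 ± 0.056. Among 17 LXR receptor and target genes 4 were higher and 2 lower, with Ch25h, which makes 25-hydroxycholesterol, up by 2.43 ± 0.28 and the cholesterol exporter gene Abcg1 down (-0.34 ± 0.056).

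Of 21 Nrf2 target genes 6 were higher and 1 lower: Txnrd1 rose by 0.84 ± 0.059, Sqstm1, which encodes the ubiquitin-binding protein p62, by 0.68 ± 0.047 and Nfe2l2 by 0.73 ± 0.060, while Hmox1 was not called. Of 27 genes of the unfolded protein and integrated stress response 6 were higher and 1 lower. Ppp1r15a, which restores translation, rose by 2.16 ± 0.089 to 174 ± 10.8 CPM in MKO 3 h, against 39.1 ± 5.33 CPM in MKO 0 h, and Hspa5, the BiP chaperone gene, rose by 0.22 ± 0.046. Slc7a11, the cystine transporter gene in both lists, rose by 1.77 ± 0.17.

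**Figure D3:**
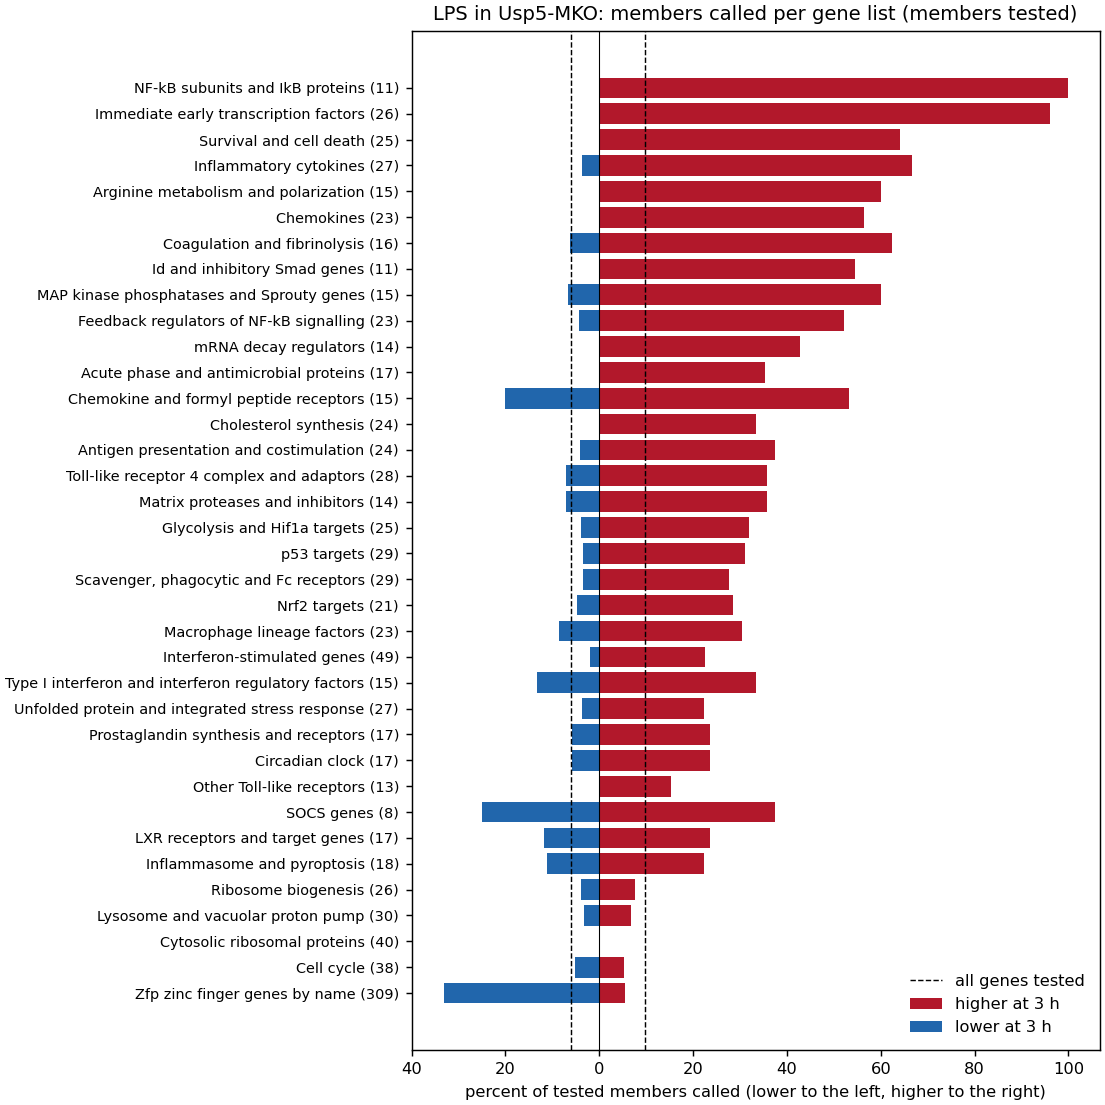
Percent of the tested members of each gene list called higher (bars to the right) and lower (bars to the left) in MKO 3 h over MKO 0 h, with dashed lines at the 9.75% and 6.08% of all genes tested. The NF-kB and immediate early lists reach furthest on the higher side, and the Zfp list is the one with its longer bar on the lower side.

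Of 38 cell cycle genes 2 were called higher and 2 lower, although Mki67 stood at 123, 131 and 126 CPM in the MKO 3 h libraries, against 57.04, 59.7 and 39.3 CPM in the MKO 0 h libraries and rose by 1.28 ± 0.12. Of 30 lysosomal genes 2 were higher and 1 lower, and of 26 ribosome biogenesis genes 2 were higher and 1 lower. Of 17 clock genes 4 were higher and 1 lower, and without MKO 3 h replicates 1 and 3 and MKO 0 h replicate 1 the number higher was 2, 1 and 2. Of 40 cytosolic ribosomal protein genes none was called, although all 40 had a fold change below 0, from -0.28 to -0.08 with a median of -0.19. The number called lower was 10 without MKO 0 h replicate 2 and 9 with scaling by library size alone. Without MKO 0 h replicate 3 it was 0, with a median of -0.04. A term for the slope on exon length gave 36, with a median of -0.18. That term was computed from these same counts, so the 36 is no independent check.

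Falls were fewer than rises and seldom reached 2-fold. Beside Thbd, the 15 largest falls among genes at 1 CPM or more without overlap between the groups held Bmf, which encodes a pro-apoptotic protein of the BCL2 family. Bmf stood at 3.19, 3.47 and 3.38 CPM in the MKO 3 h libraries, against 12.1, 9.57 and 11.5 CPM in the MKO 0 h libraries and fell by 1.72 (SE 0.13, adjusted p = 2.24e-07). Ier5l was at 0.174, 0.619 and 1.03 CPM in the MKO 3 h libraries, against 2.56, 1.94 and 2.79 CPM in the MKO 0 h libraries, with replicate 3 the highest of the 3 h libraries, and fell by 1.93 (SE 0.40). Cbx8, a Polycomb chromobox gene, was even within its groups (0.697, 0.743 and 0.798 CPM in MKO 3 h, against 2.75, 2.75 and 2.89 CPM in MKO 0 h) and fell by 1.89 (SE 0.29).

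Frat1 and Frat2, whose products bind GSK3 and favour beta-catenin signalling, fell by 1.59 (SE 0.34) and 1.58 (SE 0.32), and Wdr5b fell by 1.56 (SE 0.30). Angptl4, a lipoprotein lipase inhibitor gene, fell by 1.87 (SE 0.33). Arl4d and Plekhf1 were called at -1.67 and -1.53, but Arl4d was not called without any of MKO 3 h replicates 1, 2 and 3 or MKO 0 h replicates 1 and 3 (adjusted p between 0.0584 and 0.0921), and Plekhf1 was not called without MKO 3 h replicate 1 or 3 (0.0675 and 0.0834). The remaining 5 of the 15, Zfp108, Zfp791, Zfp273, Zfp128 and Zfp61, are zinc finger genes.

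Zinc finger genes named Zfp with a number (without the Zfp36 group), many of which encode KRAB or other C2H2 proteins, made up 2.48% of genes tested, 13.5% of those called lower and 24.7% of those lower by at least 2-fold. Of 309 tested, of 371 in the table, 102 were called lower and 17 higher, with a median of -0.34. Zfp108 stood at 0.406, 0.371 and 0.422 CPM in the MKO 3 h libraries, against 2.20, 1.09 and 1.84 CPM in the MKO 0 h libraries, and fell by 2.06 (SE 0.37, adjusted p = 0.00125). Zfp61 stood at 1.97, 2.10 and 2.25 CPM in the MKO 3 h libraries, against 6.17, 5.40 and 6.23 CPM in the MKO 0 h libraries, and fell by 1.48 (SE 0.17). Zfp467, the fall with the smallest p of the list, stood at 14.5, 14.7 and 14.2 CPM in the MKO 3 h libraries, against 22.3, 23.9 and 25.4 CPM in the MKO 0 h libraries, and fell by 0.72 (SE 0.077, adjusted p = 8.28e-06).

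The number of Zfp genes called lower depended on single libraries and on the level. Without MKO 3 h replicate 3 it was 62 and without MKO 3 h replicate 1 it was 69, and with genes under a mean of 5 CPM left out it was 64. The 4 Zfp genes with the smallest p of the list rose. Zfp263 stood at 142, 138 and 148 CPM in the MKO 3 h libraries, against 70.8, 70.04 and 65.5 CPM in the MKO 0 h libraries and rose by 1.05 ± 0.054, Zfp131 rose by 1.28 ± 0.071, Zfp719 by 1.95 ± 0.12 and Zfp800 by 0.96 ± 0.093. In the plot of cumulative shares the curve of the Zfp genes sits to the left of that of all genes over most of its range, and further left in WT.

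**Figure D4:**
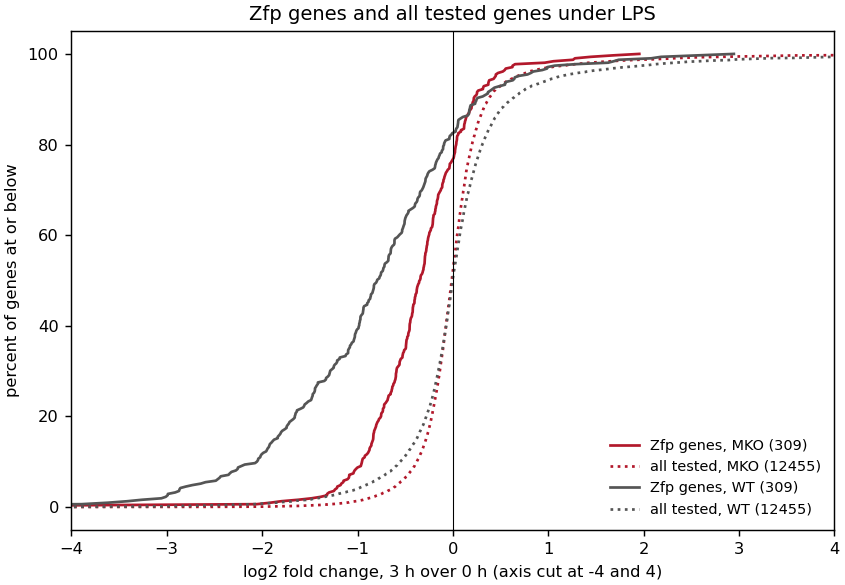
Cumulative percent of genes (vertical axis) by log2 fold change of 3 h over 0 h (horizontal axis, cut at -4 and 4) for the 309 Zfp genes and all 12455 genes tested, in MKO and in WT. The median of the Zfp genes is -0.34 in MKO and -0.79 in WT, and the medians of all genes are -0.01 and 0.00.

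Set beside WT macrophages, which share no library with them, MKO macrophages changed largely the same genes by smaller amounts. In MKO 1971 of the 12455 genes (15.8%) were called, against 4042 (32.5%) in WT. Of genes higher in MKO, 1071 were higher in WT too, which is 88.2% of the MKO list and 48.3% of the WT list; of genes lower in MKO, 592 were lower in WT, 78.2% of the MKO list and 32.5% of the WT list. The genes called higher in MKO had a median log2 fold change of 0.52 in MKO and 0.76 in WT, and those called lower -0.49 and -0.68. As the genes were chosen by their MKO calls, these medians are a description. The genotypes also differed in marker sums at 0 h. The macrophage list summed to 10500, 10420 and 9820 CPM in WT, against 7616, 7627 and 8188 CPM in MKO. The list of large resident peritoneal macrophages summed to 1672, 1752 and 1337 CPM in WT, against 412, 387 and 482 CPM in MKO. Most of the MKO sum was the acute phase gene Saa3, at 377, 352 and 442 CPM. The make-up of the WT sum is not given here, so these sums do not measure the number of resident macrophages. In CPM the mast cell and mesothelial sums were also lower in MKO, that of T and NK cells was higher, and the others overlapped. For 2 of these lists the reading depended on the unit. In TPM the mast cell sums were higher in MKO (61.99, 66.26 and 61.38, against 56.23, 52.62 and 59.3 in WT). The B cell sums in TPM were higher too (122.9, 125.7 and 133.8 in MKO, against 98.04, 100.3 and 97.62 in WT). Whether these differences in marker sums bear on the responses was not tested.

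The difference between the responses was tested as the interaction of genotype and LPS, in which a negative value means a smaller rise or a larger fall in MKO. It was called for 847 genes (6.80%), 549 (4.41%) negative and 298 (2.39%) positive. Of the 1214 genes called higher in MKO 388 had a negative and 22 a positive interaction, and of the 757 called lower 118 had a positive and 6 a negative one. The NF-kB and IkB list had 8 negative of 11, the immediate early list 14 negative and 2 positive of 26, the cytokine list 14 negative of 27, the survival list 13 negative and 1 positive of 25 and the chemokine list 8 negative of 23. The Zfp list had 50 positive and 5 negative of 309. Without MKO 0 h replicate 3 together with WT 0 h replicate 3 the interaction was called for 2535 genes. In the 0 h libraries then left, the exon-length slope was 0.0456 and 0.0731 in MKO and -0.0664 and -0.083 in WT. Whether this difference bears on the larger count was not tested.

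Among rising genes the most negative interaction belonged to Ifnb1, at 1.16, 1.42 and 1.55 CPM in MKO 3 h, against 44.9, 46.7 and 56.7 CPM in WT 3 h; at 0 h no library of either genotype was above 0.183 CPM. The value was -4.94 ± 1.12 (adjusted p = 0.0142), and without MKO 0 h replicate 1 it was -4.18 with an adjusted p of 0.171. Il12b reached 3.56 ± 0.546 CPM in MKO 3 h and 45.2 ± 2.61 CPM in WT 3 h, an interaction of -3.67 ± 0.32 (adjusted p = 3.67e-06). Il6 reached 6.83 ± 1.29 CPM in MKO 3 h and 53.04 ± 4.77 CPM in WT 3 h (-3.15 ± 0.54). For these cytokine genes no 0 h library of either genotype was above 0.855 CPM.

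For F3 the MKO cells started at a higher level as well as ending lower. F3 stood at 2.22 ± 0.0961 CPM in MKO 0 h and 0.345 ± 0.225 CPM in WT 0 h, but at 11.5 ± 2.26 CPM in MKO 3 h and 24.2 ± 0.402 CPM in WT 3 h, an interaction of -3.72 ± 0.35. Choosing negative interactions favours genes with an MKO mean above WT at 0 h and below WT at 3 h, so counts of them test nothing. This pattern held for 212 of the 388 negative interactions among rising genes. Of 11 of the 12 most negative interactions, it held for 9, with Il12b and Il6 among them, although both were low at 0 h in both genotypes. Ifnb1, at a few counts, was the exception at 0 h. Ptx3, the pentraxin gene, was the exception at 3 h, with 10.4 ± 0.788 CPM in MKO 3 h and 7.66 ± 1.09 CPM in WT 3 h, after 1.31 ± 0.178 CPM in MKO 0 h and 0.0827 ± 0.0404 CPM in WT 0 h (-3.46 ± 0.44, adjusted p = 0.000152).

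Not every strong rise was called smaller in MKO. The interaction was not called for Cxcl1 (-0.77 ± 0.42, 95% interval -1.67 to 0.14), Nfkbia (-0.11 ± 0.084, -0.29 to 0.07), Id3 (0.23 ± 0.23, -0.26 to 0.73), Tlr2 (-0.20 ± 0.082, -0.38 to -0.03) or Ier3 (-0.04 ± 0.13, -0.31 to 0.23); these intervals are not adjusted for the number of genes, and they do not show equal responses. Fos rose more in MKO: it stood at 208 ± 17.6 CPM in MKO 3 h and 153 ± 10.7 CPM in WT 3 h, and at 70.98 ± 4.84 CPM in MKO 0 h and 79.1 ± 7.79 CPM in WT 0 h, an interaction of 0.60 ± 0.12 (adjusted p = 0.00722). Smad6 also had a positive interaction, with 6.61 ± 1.19 CPM in MKO 3 h and 2.04 ± 0.365 CPM in WT 3 h, and at 0 h 0.560 ± 0.385 CPM in MKO and 0.918 ± 0.571 CPM in WT (2.35 ± 0.64, adjusted p = 0.0415); it was not called without any of MKO 3 h replicates 1, 2 and 3 or MKO 0 h replicates 1 and 2 (adjusted p between 0.054 and 0.0988).

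Among genes that fell, a smaller fall in MKO gave a positive interaction. Zfp763 stood at 1.74, 1.42 and 1.41 CPM in MKO 3 h, against 0.313, 0.322 and 0.280 CPM in WT 3 h, and at 0 h it averaged 3.96 ± 0.815 CPM in MKO and 4.63 ± 0.195 CPM in WT, an interaction of 2.51 ± 0.35 (adjusted p = 0.000351). Zfp60 was at 6.26 ± 1.22 CPM in MKO 3 h and 1.10 ± 0.151 CPM in WT 3 h (2.16 ± 0.27). Of the 12 most positive interactions 8 were Zfp genes. Txnip fell by 0.47 in MKO and by 1.65 in WT (interaction 1.17 ± 0.076, adjusted p = 2.19e-07).

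Of the genes called in both genotypes, 5 went opposite ways. Cx3cr1, the fractalkine receptor gene, stood at 20.1, 19.9 and 18.96 CPM in MKO 3 h, against 16.4, 15.2 and 15.2 CPM in MKO 0 h, a rise of 0.33 ± 0.081, and at 12.5, 13.6 and 11.8 CPM in WT 3 h, against 20.5, 21.7 and 22.9 CPM in WT 0 h, a change of -0.78 ± 0.083. Its interaction was 1.12 ± 0.12 (adjusted p = 2.43e-05). Tgfbi, Pfkfb3 and Lrrc8a were called higher in MKO and lower in WT, and Cdkn1b, which encodes the cell cycle inhibitor p27, lower in MKO and higher in WT. The MKO changes of these 4 were small, from -0.27 to 0.26, and 3 of them lost their call with 1 library left out while their direction stayed. Pfkfb3 was not called without MKO 3 h replicate 3 or MKO 0 h replicate 3 (0.19 in both, adjusted p = 0.121 and 0.0732). Lrrc8a was not called without any one MKO 3 h replicate or without MKO 0 h replicate 2 or 3 (0.20 to 0.29, adjusted p = 0.0547 to 0.166), nor Cdkn1b without replicate 1 or 2 of either group (-0.26 to -0.23, adjusted p = 0.0645 to 0.0941).

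**Figure D5:**
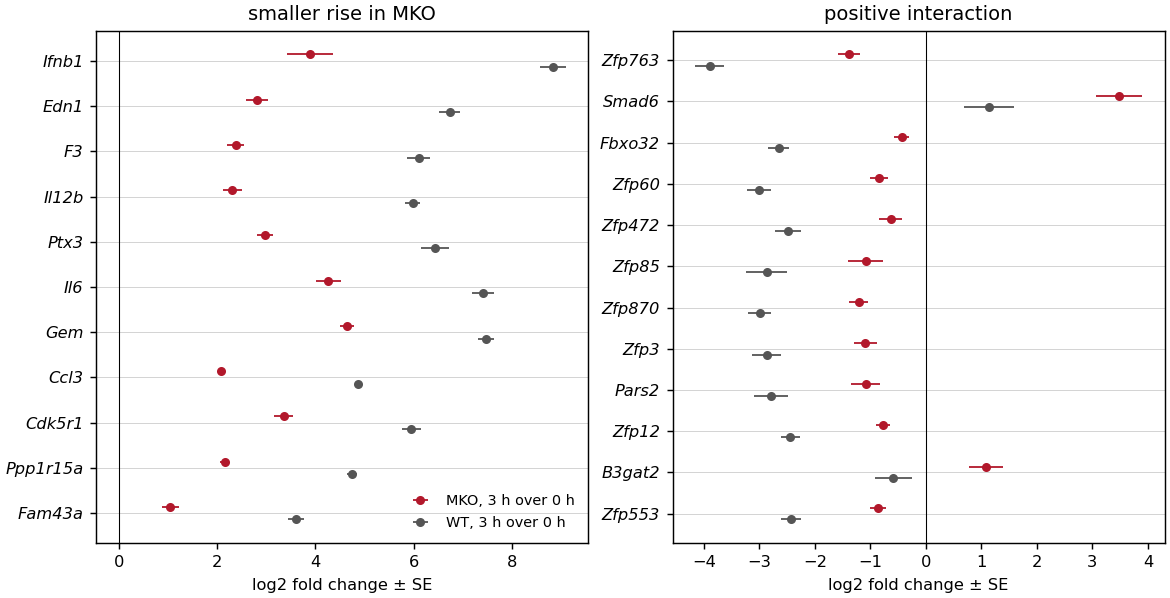
Log2 fold change of 3 h over 0 h with its SE in MKO (upper point of each pair) and in WT (lower point) for 11 of the 12 genes with the most negative and the 12 with the most positive interaction among genes called both in MKO and in the interaction. In the negative set each rise is smaller in MKO, by 2.57 to 4.94; in the positive set 10 falls are smaller in MKO, while Smad6 and B3gat2 are the 2 genes that were called higher.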

How the data were processed

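Total RNA of mouse peritoneal macrophages was sequenced in 12 libraries. The authors deposited 1 table with whole-number counts and TPM per gene, exon coordinates and gene names, per the file headers; reads were trimmed with fastp and the build was mm10, by the submitters' processing notes. Which aligner and counter were used, and with which strand setting, is not stated in the labels or headers, so antisense and overlapping genes are uncertain. Samples were grouped by their labels. Of 48709 genes in the table, 19195 had a count and 12455 passed edgeR's low-count filter over the 4 groups. The deposited counts were scaled by TMM and fitted with edgeR 4.0.16 (R 4.3.3) by the quasi-likelihood test, with a mean for each group over all 12 libraries, because the shared spread then rests on more libraries. Comparisons were MKO 3 h over MKO 0 h, WT 3 h over WT 0 h, and their difference (the interaction), with Benjamini-Hochberg adjustment over all 12455 genes and a threshold of 0.05. The procedure was tested on simulated data. Deposited TPM was used only for shares of transcripts, for sums over marker lists and for the order of levels between genes. CPM values are not length-corrected.

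Named genes were Usp5, the 15 largest rises and falls called at 1 CPM or more without overlap between groups, the 5 smallest p and the 2 most abundant uncalled genes of each list, the 12 most negative and 12 most positive interactions, genes called in opposite directions, and the 10 risers highest in TPM. Some of these genes are not reported here, but they stay in the fits and counts. The genes and lists were chosen with earlier results of these data known, and other list members named in the text were chosen after their values were seen. Alternatives were DESeq2 1.42.0, other scalings, filters and groups fitted, a replicate block, each MKO library left out, both 0 h libraries that stand apart (MKO and WT replicate 3) left out, replicates 1 and 2 of each group summed, and a term for the slope on exon length. The slope term was computed from the same counts and centred within each group. Counting intervals and floors cover counting error only. Promoter sequence is from RefSeq on GRCm38.p6.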

Additional observations from a re-analysis of the deposited data

Results flagged for a closer look

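The response to LPS differed between MKO and WT macrophages, by the interaction test in edgeR, for 847 genes. Among genes that rose in MKO, the rise was smaller in MKO for Ifnb1 (interaction -4.94), Edn1 (-3.91), F3 (-3.72), Il12b (-3.67), Ptx3 (-3.46), Il6 (-3.15), Gem (-2.82), Ccl3 (-2.78), Cdk5r1 (-2.59), Ppp1r15a (-2.58) and Fam43a (-2.57). Edn1, the endothelin 1 gene, averaged 3.56 ± 0.504 CPM in MKO 3 h and 24.5 ± 0.918 CPM in WT 3 h, and 0.497 ± 0.176 CPM in MKO 0 h and 0.221 ± 0.0838 CPM in WT 0 h. Gem averaged 26.6 ± 2.76 CPM in MKO 3 h and 94.5 ± 2.15 CPM in WT 3 h, and 1.08 ± 0.303 CPM in MKO 0 h and 0.531 ± 0.151 CPM in WT 0 h.

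A positive interaction was called for Zfp763 (2.51), Smad6 (2.35), Fbxo32 (2.22), Zfp60 (2.16), Zfp472 (1.85), Zfp85 (1.79), Zfp870 (1.78), Zfp3 (1.78), Pars2 (1.70), Zfp12 (1.67), B3gat2 (1.67) and Zfp553 (1.57). Some calls were lost with 1 library left out, most at about the same size. The interaction of B3gat2 was 1.63 to 1.75 without any one MKO 3 h library (adjusted p = 0.0634 to 0.0936), and 1.69 and 1.51 without MKO 0 h replicates 2 and 3 (0.0732 and 0.0771). That of Pars2 was 1.72 and 1.58 without MKO 3 h replicates 1 and 3 and 1.64 without MKO 0 h replicate 1 (0.0514 to 0.0714). That of Zfp85 was 1.18 without MKO 3 h replicate 3 (0.169) and 1.75 to 1.82 without any one MKO 0 h library (0.0589 to 0.0815). The change in MKO alone, with all libraries -0.64 for Zfp472, -0.44 for Fbxo32, -1.09 for Zfp85 and 1.08 for B3gat2, was not called in several of these settings, with adjusted p up to 0.208 for Zfp472 (-0.47) and 0.161 for Fbxo32 (-0.38) without MKO 3 h replicate 3, 0.122 for Zfp85 (-0.90) without MKO 3 h replicate 1 and 0.111 for B3gat2 (0.91) without MKO 0 h replicate 3. The genes called in opposite directions had interactions of -0.69 (Cdkn1b), 1.12 (Cx3cr1), 0.56 (Lrrc8a), 0.51 (Pfkfb3) and 0.38 (Tgfbi).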

How the results depend on the processing

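Of 241 genes named by the rule or in the text and called in MKO, 2 were not called with DESeq2 and 13 with scaling by library size alone, in the same direction, and 42 with replicates 1 and 2 of each group summed. These replicates differed least from each other: chi-square per degree of freedom over genes was 1.94 between them in MKO 3 h and 2.67 in MKO 0 h, but 4.29 to 28.1 between either and replicate 3. With 1 MKO library left out, between 10 and 22 were not called. The number called higher moved by more than 1.5 times to 688 with replicates 1 and 2 of each group summed, 2252 with a term for exon length and 329 at 2-fold or more. The number called lower moved to 1758 with scaling by library size alone, 257 with replicates summed, 1592 with the length term and 97 at 2-fold or more, and it ran between 428 and 795 with 1 MKO library left out. The interaction count was 2535 without both 0 h libraries that stand apart, 294 with replicates summed, 1810 with the length term and 248 at 2-fold or more. H2-D1, H2-Aa and H2-Eb1, not called with all libraries (0.00, -0.09 and -0.05), were called at 0.11, 0.13 and 0.19 without both of those libraries. Summing leaves 2 libraries a group; the other causes were not tested.

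Same-numbered MKO 3 h and MKO 0 h libraries did not deviate together (r of -0.04, -0.03 and -0.09). Deviations within groups of 3 libraries cannot decide whether the numbers pair the samples, and the labels do not say. With the replicate block, 1029 genes were called higher and 587 lower, and the interaction was called for 672. Levels near 1 count, 0.0469 to 0.0619 CPM, limit the genes that start lowest, among them Ifnb1, Csf3, Il23a and Tmem200b.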
